A study of Homo sapiens with 2 samples.

Results

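The genes described here are 10 core members of the TGF-beta pathway: the ligands TGFB1 and TGFB2, the receptors TGFBR1 and TGFBR2, the signalling SMADs SMAD2, SMAD3 and SMAD4, and the inhibitors or feedback genes SMAD7, SKIL and PMEPA1. They were taken by gene symbol from 24462 distinct symbols, and each of the 10 stood on a single row. The study asked how silencing ADGRF4, an adhesion G protein-coupled receptor, changes gene expression in A549, an established human lung adenocarcinoma line. It holds 2 libraries, 1 from A549 cells transfected with ADGRF4 siRNAs and 1 from A549 cells transfected with control siRNAs; both were grown in DMEM with fetal bovine serum. Both libraries are 3' end counts of messenger RNA. With 1 library per treatment there is no replicate, so no test between the treatments is given, and every interval below covers counting error only.

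TGF-beta ligands are secreted in a latent form and, once released, bind TGFBR2, which recruits and phosphorylates the kinase TGFBR1. TGFBR1 then phosphorylates SMAD2 and SMAD3, which join SMAD4 and enter the nucleus to regulate transcription, while SMAD7, SKIL and PMEPA1 are themselves induced by the signal and restrain it. In epithelial cells the pathway is known for growth arrest and for driving epithelial to mesenchymal transition, and A549 is a widely used model of that response.

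The ADGRF4 siRNA library held 9825320 counts and the control siRNA library 10396047. The silenced gene had 1 count after ADGRF4 siRNA (exact Poisson 95% interval 0.0253 to 5.57) and 3 counts after control siRNA (0.619 to 8.77). Both are at or under the floor, set at 3 counts, so no fold is given and the labels are not checked by this gene. All 10 A549 epithelial markers listed had counts in both libraries. By a limit of 1.5-fold, 3 were higher after ADGRF4 siRNA and 6 lower. By the same limit, 21.1% of the 11771 symbols compared below were higher and 22.3% lower. After the centring on 3' GC content described below, 1 marker was higher and 5 lower, against 15.2% and 19.1% of symbols. CDKN2A, which is deleted in A549, was at 0 in both libraries. Of 12 markers of immune, endothelial and fibroblast cells, 7 had at most 3 counts in each library, and their summed level was 9.97 CPM after ADGRF4 siRNA and 10.0 CPM after control siRNA. Most of those counts came from COL1A1, with 45 after ADGRF4 siRNA and 50 after control siRNA, and CD14, with 30 after ADGRF4 siRNA and 45 after control siRNA. ITGAM had 7 and PTPRC 2 counts after ADGRF4 siRNA, against 8 and 7 after control siRNA, and CD3E, VWF, LUM and PDGFRB were at 0 in both. Among the epithelial markers, the largest differences were in KRT7, at a log2 ratio of 1.41, and in AKR1B10, CDH1 and AKR1C1, at -2.28, -2.08 and -1.55.

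The 4 promoter stretches below belong to 4 of the 10 members: the 2 ligands, which gave different ratios, and SMAD7 and SKIL, the feedback genes that were lower. TGFBR2, which was also lower, is not shown. Each shows the 250 bases upstream of the first transcription start that RefSeq lists for the gene on GRCh38.p14, 5' to 3' on the gene's strand. All 10 members matched a RefSeq promoter entry. Capitals mark CAGAC, the short core that SMAD proteins bind, or its reverse complement GTCTG.
TGFB1 (chr19:41353923-41354172, minus strand): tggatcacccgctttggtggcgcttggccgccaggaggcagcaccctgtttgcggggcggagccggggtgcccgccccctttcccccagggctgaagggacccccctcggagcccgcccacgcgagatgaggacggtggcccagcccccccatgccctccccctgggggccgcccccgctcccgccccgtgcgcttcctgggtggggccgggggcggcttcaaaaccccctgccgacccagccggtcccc
TGFB2 (chr1:218345086-218345335, plus strand): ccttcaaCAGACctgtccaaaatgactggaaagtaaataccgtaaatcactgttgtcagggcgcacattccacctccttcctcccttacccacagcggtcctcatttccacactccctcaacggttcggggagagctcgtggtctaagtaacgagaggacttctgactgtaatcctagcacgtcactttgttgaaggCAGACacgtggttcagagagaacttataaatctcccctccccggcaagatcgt
SMAD7 (chr18:48950966-48951215, minus strand): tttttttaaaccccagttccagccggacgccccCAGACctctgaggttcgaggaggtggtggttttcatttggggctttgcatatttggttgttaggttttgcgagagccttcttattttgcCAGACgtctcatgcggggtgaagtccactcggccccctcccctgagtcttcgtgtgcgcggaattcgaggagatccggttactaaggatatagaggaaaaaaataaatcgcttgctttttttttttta
SKIL (chr3:170357465-170357714, plus strand): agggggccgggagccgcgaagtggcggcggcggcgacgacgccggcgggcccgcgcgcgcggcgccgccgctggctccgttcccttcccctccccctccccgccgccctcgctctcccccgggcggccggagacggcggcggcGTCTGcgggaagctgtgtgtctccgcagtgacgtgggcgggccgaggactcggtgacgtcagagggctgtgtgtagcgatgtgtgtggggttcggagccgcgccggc
In windows of 300 bases, with 50 bases after the start included, CAGAC stood on either strand in 5 of the 10 members and in 45% of 27305 RefSeq promoters. It occurred 2 times in TGFB2, 2 times in SMAD7, 1 time in SKIL and 0 times in TGFB1. Of the members not shown, TGFBR1 and SMAD3 had 1 each, and TGFBR2, SMAD2, SMAD4 and PMEPA1 had 0. The longer CAGACA, the core of the CAGA box, of which CAGAC is a part, stood in 1 member, TGFB2, and in 16.8% of promoters. The palindromic SMAD binding element GTCTAGAC stood in 0 of the 10 members and in 0.201% of promoters. Only the first window listed for each gene was searched. RefSeq lists 8 promoter windows for TGFBR1, 5 for SMAD3, 4 for PMEPA1, 3 for SMAD7 and 2 each for TGFBR2 and SMAD2. An element at a start outside the searched window would therefore be missed, for SMAD7 as for the others. The 300-base window of TGFB1 was 77.3% GC, that of TGFB2 51.7%, that of SMAD7 48.3% and that of SKIL 79.0%. These matches describe letters in a window and not binding.

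Among the 10 members, 1 ligand was higher and 1 receptor and 2 feedback genes were lower after ADGRF4 siRNA. A difference is called by size alone, at 1.5-fold on the scale of log2(CPM + 1), with CPM after TMM scaling of the library sizes (trimmed mean of M values). All 10 members had a mean of at least 30 counts, the limit for comparison. TGFB1 was called higher, against 21.1% of the 11771 compared symbols. TGFBR2, SMAD7 and SKIL were called lower, against 22.3% of compared symbols. That is 1 and 3 of 10 members, shares near those of all compared symbols, and the members' median log2 ratio was -0.02, beside -0.02 for all compared symbols. In bulk libraries like these, fewer cells that express a gene and less of its RNA per cell cannot be told apart. At 2-fold, TGFB1 was the 1 member higher, against 7.84% of compared symbols, and SMAD7 the 1 member lower, against 10.4%.

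TGFB1, the most studied ligand of the pathway, had 304 counts after ADGRF4 siRNA and 130 counts after control siRNA. On the scaled level this is 32.6 CPM (29.02 to 36.5) in the ADGRF4 siRNA library against 11.9 CPM (9.92 to 14.1) in the control siRNA library. It was 2.74-fold higher (exact Clopper-Pearson 95% interval 2.23 to 3.39), and 1.79% of compared symbols had a ratio at least as high. TGFB2, a second ligand of the same receptors, had 483 counts after ADGRF4 siRNA and 506 after control siRNA. Its level was 51.8 CPM after ADGRF4 siRNA and 46.2 CPM after control siRNA. The ratio of 1.12 (0.986 to 1.27) has an interval that includes 1. The ligand genes therefore differed from each other in their ratios, and their intervals do not overlap. The third ligand, TGFB3, had 31 counts after ADGRF4 siRNA and 41 after control siRNA, a ratio of 0.887.

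The balance between the ligands does not depend on how library sizes are scaled. TGFB1 made up 38.6% of the TGFB1 and TGFB2 counts after ADGRF4 siRNA (304 of 787, exact binomial 95% interval 35.2% to 42.1%) and 20.4% after control siRNA (130 of 636, 17.4% to 23.8%). A separate symbol, TGFB2-OT1, is annotated on the same strand within TGFB2 exons, and had 310 counts after ADGRF4 siRNA and 345 after control siRNA. With those counts added to TGFB2, the TGFB1 share was 27.7% after ADGRF4 siRNA and 13.3% after control siRNA, and the TGFB2 ratio was 1.09 (0.991 to 1.21). Exons of TGFB1 are overlapped on the other strand by HNRNPUL1, an RNA-binding protein gene, which had 4068 counts after ADGRF4 siRNA and 5201 after control siRNA, a ratio of 0.917 (0.880 to 0.956). Unless the counting was stranded, reads of the pair are mixed, and the part of HNRNPUL1 in the TGFB1 counts was not tested.

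**Figure D1:**
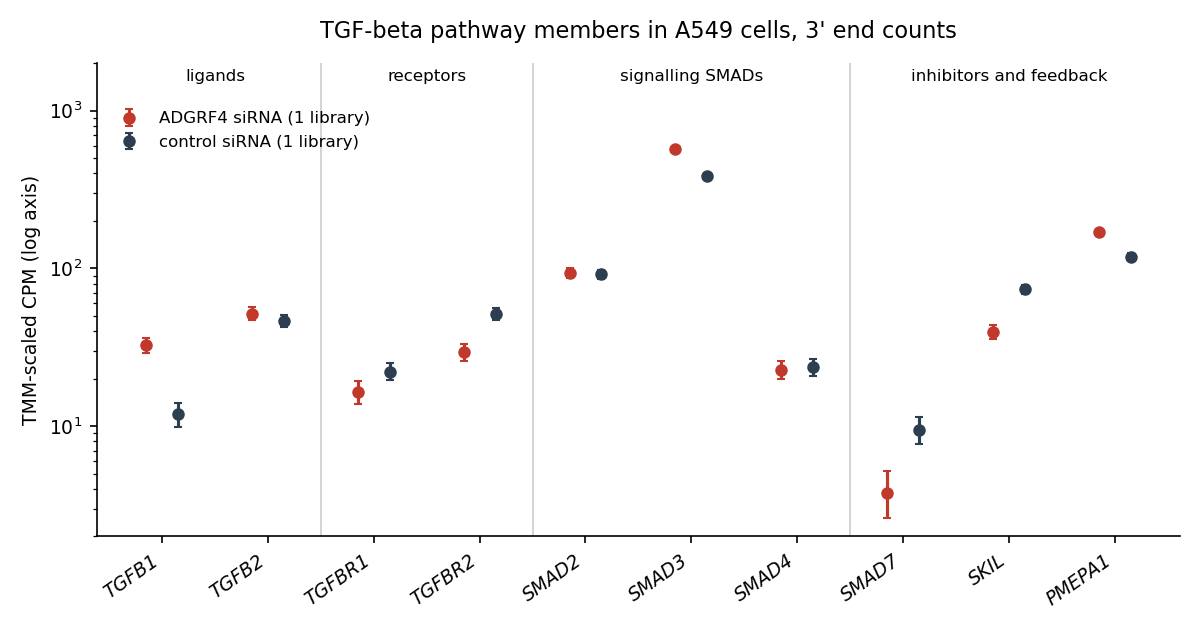
TMM-scaled CPM of each member on a log axis in the ADGRF4 siRNA library (red, left of each pair) and the control siRNA library (dark, right), with exact Poisson 95% intervals that cover counting error only. The intervals of TGFB1, TGFBR1, TGFBR2, SMAD3, SMAD7, SKIL and PMEPA1 do not overlap between the libraries, and those of TGFB2, SMAD2 and SMAD4 do.

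Both receptor genes had fewer counts after ADGRF4 siRNA, and TGFBR2 passed the 1.5-fold limit. TGFBR2, the type II receptor that binds ligand first, had 274 counts after ADGRF4 siRNA and 565 after control siRNA. The level was 29.4 CPM (25.99 to 33.1) after ADGRF4 siRNA and 51.6 CPM (47.4 to 56.1) after control siRNA. TGFBR2 was 1.76-fold lower (1.52 to 2.04), and 15.2% of compared symbols had a ratio at least as low. TGFBR1, the type I receptor kinase, had 153 counts after ADGRF4 siRNA and 243 after control siRNA. The level was 16.4 CPM after ADGRF4 siRNA and 22.2 CPM after control siRNA. Its ratio of 0.739 (0.599 to 0.908) lies below 1 but inside the 1.5-fold limits. TGFBR1 took 35.8% of the counts of the receptor pair after ADGRF4 siRNA (31.3% to 40.6%) and 30.1% after control siRNA (26.9% to 33.4%), and these intervals overlap.

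The signalling SMADs all lay inside the 1.5-fold limits. SMAD3, a receptor-activated SMAD that binds DNA directly, had 5302 counts after ADGRF4 siRNA and 4199 after control siRNA, the most of any member. The level was 568 CPM (553 to 584) after ADGRF4 siRNA and 384 CPM (372 to 395) after control siRNA. Its ratio of 1.48 (1.42 to 1.54) has an interval that spans the 1.5-fold limit. SMAD2, its close relative, whose common form does not bind DNA directly, had 873 counts after ADGRF4 siRNA and 1006 after control siRNA, a ratio of 1.02 (0.929 to 1.12). SMAD4, the shared partner of all receptor-activated SMADs, had 212 counts after ADGRF4 siRNA and 259 after control siRNA, a ratio of 0.960 (0.797 to 1.16). SMAD2 accordingly made up 14.1% of the SMAD2 and SMAD3 counts after ADGRF4 siRNA (873 of 6175, 13.3% to 15.03%) and 19.3% after control siRNA (1006 of 5205, 18.3% to 20.4%). These intervals do not overlap, although neither gene was called on its own.

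The 3 inhibitors and feedback genes did not go the same way. SMAD7, an inhibitory SMAD that blocks the type I receptor, had 35 counts after ADGRF4 siRNA and 103 after control siRNA, the fewest of any member. The level was 3.75 CPM (2.61 to 5.22) after ADGRF4 siRNA and 9.41 CPM (7.68 to 11.4) after control siRNA. SMAD7 was 2.51-fold lower (1.69 to 3.79), and 8.08% of compared symbols had a ratio at least as low. SKIL, which encodes the SMAD corepressor SnoN, had 368 counts after ADGRF4 siRNA and 807 after control siRNA. Its level was 39.4 CPM (35.5 to 43.7) after ADGRF4 siRNA and 73.7 CPM (68.7 to 79.0) after control siRNA. SKIL was 1.87-fold lower (1.65 to 2.12), with 12.7% of compared symbols at least as low. PMEPA1, a membrane protein that sequesters receptor-activated SMADs, had 1579 counts after ADGRF4 siRNA and 1300 after control siRNA. Its level was 169 CPM (161 to 178) after ADGRF4 siRNA and 119 CPM (112 to 125) after control siRNA. The ratio of 1.42 (1.32 to 1.53) was inside the 1.5-fold limits and on the opposite side of 1 from SMAD7 and SKIL. NKILA, a long non-coding RNA whose exons overlap PMEPA1 on the other strand, had 44 counts after ADGRF4 siRNA and 19 after control siRNA.

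**Figure D2:**
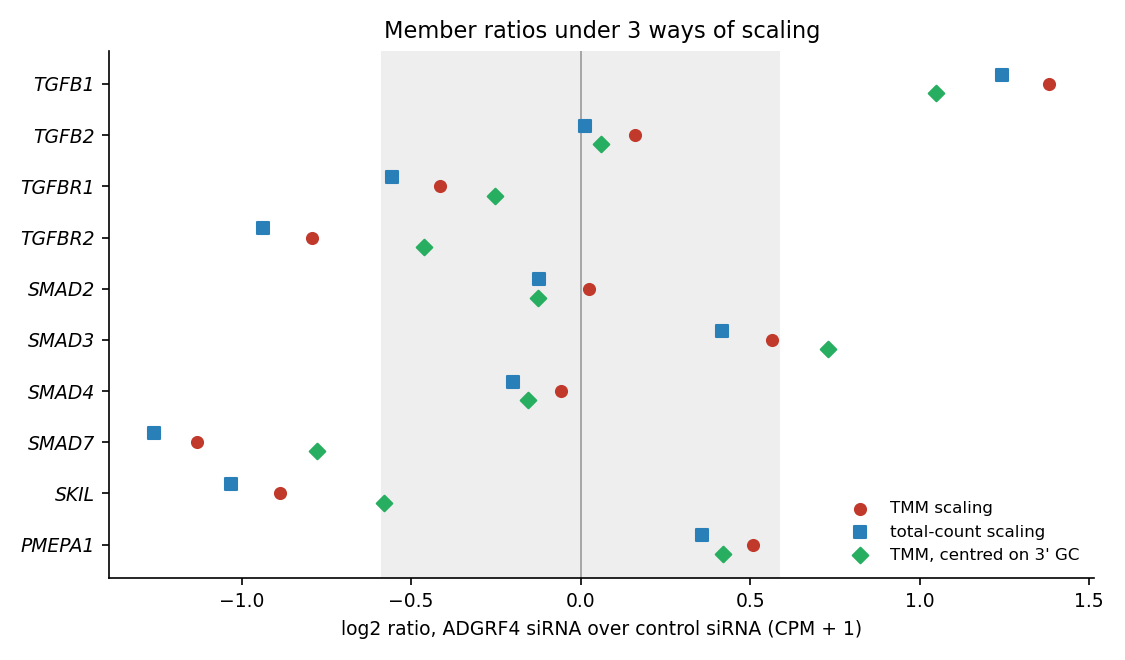
Log2 ratio of each member, ADGRF4 siRNA over control siRNA, on the CPM + 1 scale under TMM scaling (circles), total-count scaling (squares) and TMM with centring on 3' GC content (diamonds). The grey band marks less than 1.5-fold. TGFB1 and SMAD7 lie outside it under all 3, TGFBR2 and SKIL under the first 2, and SMAD3 after centring.

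The members' ratios followed the base composition of their 3' ends. Measured over the final 300 bases of each gene's longest transcript in GENCODE 29, GC content was 22.7% for SMAD7, 28.7% for TGFBR2 and 30% for SKIL, the 3 members called lower and the 3 lowest values of the 10. TGFB1 had 50.7%, the highest of the 10. The other members lay between 39.3% (SMAD3) and 48.3% (SMAD2). Spearman's rho between 3' GC and log2 ratio was 0.745 over the 10 members and 0.455 over the 11139 compared symbols with a value. These points share the same libraries and are a description.

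The medians of compared symbols at low and at high 3' GC lay on opposite sides of 0. Of 1737 symbols with 3' GC of 30% or less, 33.1% lay at least 1.5-fold lower and 5.47% as far higher, with a median log2 ratio of -0.34. Of 2954 symbols at 50% or more, 49.6% lay at least 1.5-fold higher and 8.26% as far lower, with a median of 0.58. After each ratio was centred on the median of its 3' GC bin, TGFB1 kept a log2 ratio of 1.05 and SMAD7 one of -0.78, both past the 1.5-fold limit of 0.585. TGFBR2 moved to -0.46, inside it, and SKIL to -0.579, so close to the limit that counting error alone could place it on either side. SMAD3 moved to 0.73, outside it. The centred count was therefore 2 members higher, TGFB1 and SMAD3, and 1 lower, SMAD7, against 15.2% and 19.1% of symbols. The part of base composition in each ratio was not tested beyond this centring.

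Which 3' end A549 cells use is not known from counts, and for some members it matters to the GC value. Over coding transcripts of the GENCODE basic set, 3' GC ran from 22.7% to 58.0% for SMAD7, from 31.0% to 48.3% for SMAD2, from 39.3% to 57.7% for SMAD3, from 46.7% to 67.7% for PMEPA1, from 30.7% to 39.7% for TGFBR1, from 44.3% to 52.3% for SMAD4 and from 27.3% to 38.7% for SKIL. It was 28.7% to 29% for TGFBR2 and 44.0% for both TGFB2 transcripts, and TGFB1 has a single such transcript. The end used for centring was the lowest of the range for SMAD3 and the highest for SMAD2. The bin median was -0.16 at 39.3% and 0.58 at 55.7%. A GC-richer end would thus lower the centred ratio of SMAD3, and its centred call holds for the end used. Centring on other ends was not tested. In the last 300 bases, the AU-rich pentamer ATTTA, read on the transcript strand, occurred 2 times in SMAD7, 1 time each in SKIL, SMAD3 and TGFBR1 and 0 times in the other members, and 45% of compared symbols held at least 1.

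**Figure D3:**
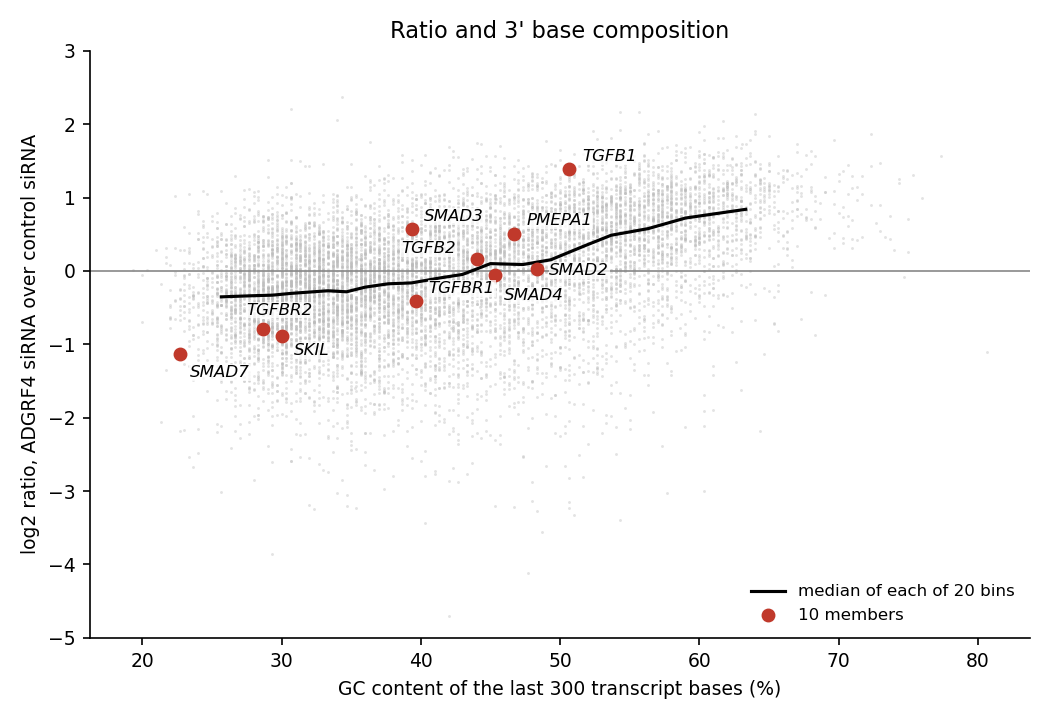
Log2 ratio, ADGRF4 siRNA over control siRNA, against the GC content of the last 300 transcript bases for 11139 compared symbols (grey), with the median of each of 20 bins (line) and the 10 members (red). SMAD7, TGFBR2 and SKIL lie at 30% GC or less and below the line, and TGFB1 lies above it at 50.7%.

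The wider pathway held differences in both directions. In addition to the 10 members, 76 components in 7 lists had enough counts, of 104 listed. Of these 76, 13 passed 1.5-fold upwards after ADGRF4 siRNA and 20 downwards, with a median log2 ratio of -0.05, beside the 21.1% higher and 22.3% lower of all compared symbols. With total-count scaling, which lowers the median of all compared symbols to -0.16, the split was 10 higher and 27 lower, and after centring on 3' GC it was 14 and 14. The counts below for single lists include any of the 10 members that belong to them.

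Ligands of the superfamily differed in both directions. Of 12 compared, 4 were at least 1.5-fold higher and 2 lower, against 21.1% and 22.3% of all compared symbols. The median log2 ratio of the 12 was 0.27. AMH, the anti-Müllerian hormone, had 191 counts after ADGRF4 siRNA and 57 after control siRNA, 3.93-fold higher (2.91 to 5.38). Its 3' end is 69.7% GC, and its centred log2 ratio was 0.95. BMP6, a bone morphogenetic protein that signals through SMAD1 and SMAD5, had 149 counts after ADGRF4 siRNA and 705 after control siRNA, 4.03-fold lower (3.38 to 4.85). INHBB, which encodes an activin subunit, had 253 counts after ADGRF4 siRNA and 672 after control siRNA and was 2.26-fold lower (1.96 to 2.63).

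Genes that hold the ligand latent or release it gave 2 higher and 2 lower among 10, near the 21.1% and 22.3% of all compared symbols. Their median was 0.14. LTBP3, a latent TGF-beta binding protein, was 2.12-fold higher (1.97 to 2.29), with 1951 counts after ADGRF4 siRNA and 1079 after control siRNA. Its relative LTBP4 was 1.603-fold lower (1.33 to 1.94), with 176 counts after ADGRF4 siRNA and 331 after control siRNA. Their 3' ends are both GC-rich, at 69.0% and 67.3%. After centring, LTBP3 had a log2 ratio of 0.24, inside the limit, and LTBP4 one of -1.49. The integrin chains ITGAV and ITGB6, which together activate latent TGF-beta, parted, with ITGAV 1.52-fold higher (1.35 to 1.71) and ITGB6 1.74-fold lower (1.09 to 2.83), on 28 counts after ADGRF4 siRNA and 57 after control siRNA. Both lie close to the limit. The centred log2 ratio was 0.86 for ITGAV and -0.36 for ITGB6, and the list's centred count was 2 higher and 1 lower. Under total-count or upper-quartile scaling the count was 1 higher and 3 lower. It was 1 higher and 2 lower with the control library thinned, and 1 higher and 0 lower with a pseudocount of 5.

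Of 9 receptors compared, 3 passed the limit downwards and 0 upwards, against 22.3% and 21.1% of all compared symbols, with a median log2 ratio of -0.55. The count lower was 5 with total-count scaling and 1 at a limit of 100 counts. ACVR1, a type I receptor for bone morphogenetic proteins, had 11 counts after ADGRF4 siRNA and 66 after control siRNA, 5.12-fold lower (2.68 to 10.7). ACVR2A, an activin type II receptor, had 44 counts after ADGRF4 siRNA and 100 after control siRNA, 1.94-fold lower (1.35 to 2.83), and its exons are overlapped on the other strand by ORC4. BMPR1B had 337 counts after ADGRF4 siRNA and 587 after control siRNA, a ratio of 0.673 (0.587 to 0.771), just inside the limit. After centring on 3' GC the list's median was -0.27, with 1 receptor lower (ACVR1) and 1 higher. The coreceptor ENG was at 0 in both libraries.

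Among all 7 SMADs compared, SMAD7 was the 1 gene called. SMAD1, which carries bone morphogenetic protein signals, had a ratio of 1.21 (0.997 to 1.48). SMAD6, the other inhibitory SMAD, had 582 counts after ADGRF4 siRNA and 583 after control siRNA, a ratio of 1.17 (1.04 to 1.32), whereas SMAD7 had a ratio of 0.399 (0.264 to 0.590).

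Of 17 inhibitors and feedback genes, 3 were at least 1.5-fold higher and 6 lower, against 21.1% and 22.3% of all compared symbols, with a median of -0.08 (0.14 after centring). The count higher was 1 with total-count scaling or a pseudocount of 5, and the count lower was 3 at a limit of 100 counts, which leaves out SMAD7, SMURF2 and TGIF2. The homeodomain repressors TGIF1 and TGIF2, which bind SMADs, were lower by 2.07-fold (1.67 to 2.57) and by 2.03-fold (1.43 to 2.92). SMURF2, a ubiquitin ligase that targets receptors and SMADs, had 29 counts after ADGRF4 siRNA and 77 after control siRNA, 2.26-fold lower (1.46 to 3.60). All 3 remained past the limit after centring, at log2 ratios of -0.67, -0.85 and -0.64. TGIF1, TGIF2 and SMURF2 each have 1 named pseudogene that could share reads.

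Adaptors and cofactors gave 4 higher and 3 lower among 16, near the 21.1% and 22.3% of all compared symbols, with a median of -0.05. The count lower was 5 with total-count scaling and 1 at 2-fold. After centring, 3 were higher and 2 lower. TRIM33, a ubiquitin ligase that acts on SMAD4 and binds SMAD2 and SMAD3, had 204 counts after ADGRF4 siRNA and 695 after control siRNA, 2.90-fold lower (2.48 to 3.41). RANBP3, which exports SMAD2 and SMAD3 from the nucleus, had 1288 counts after ADGRF4 siRNA and 686 after control siRNA, 2.20-fold higher (2.01 to 2.42). Centring left log2 ratios of -1.16 for TRIM33 and 0.79 for RANBP3. FOXH1, a DNA-binding partner of SMAD2, was 2.58-fold higher (2.34 to 2.86), but its exons are overlapped on the other strand by KIFC2. Its 3' end is 60.7% GC, and its centred log2 ratio was 0.63, just past the limit. HGS, an endosomal adaptor, was 2.04-fold higher (1.79 to 2.33) and had a centred log2 ratio of 0.17.

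In the branch that does not use SMADs, 7 of 17 genes passed the limit downwards and 1 upwards, against 22.3% and 21.1% of all compared symbols, with a median of -0.45. After centring, 4 were lower and 1 higher, against 19.1% and 15.2%, with a median of -0.29. With a pseudocount of 5 the count lower was 4, and at 2-fold it was 2. MAP2K3, a kinase that activates p38, had 117 counts after ADGRF4 siRNA and 752 after control siRNA, 5.48-fold lower (4.50 to 6.72). TAB2, an adaptor of the kinase TAK1, was 2.22-fold lower (1.74 to 2.86), and SOS1, an exchange factor for RAS, 1.83-fold lower (1.52 to 2.21). Centring left log2 ratios of -2.70 for MAP2K3, -0.74 for TAB2 and -0.53, inside the limit, for SOS1. PARD6A, a polarity protein phosphorylated by TGFBR2, was 1.87-fold higher (1.505 to 2.33), with a centred log2 ratio of 0.01.

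**Figure D4:**
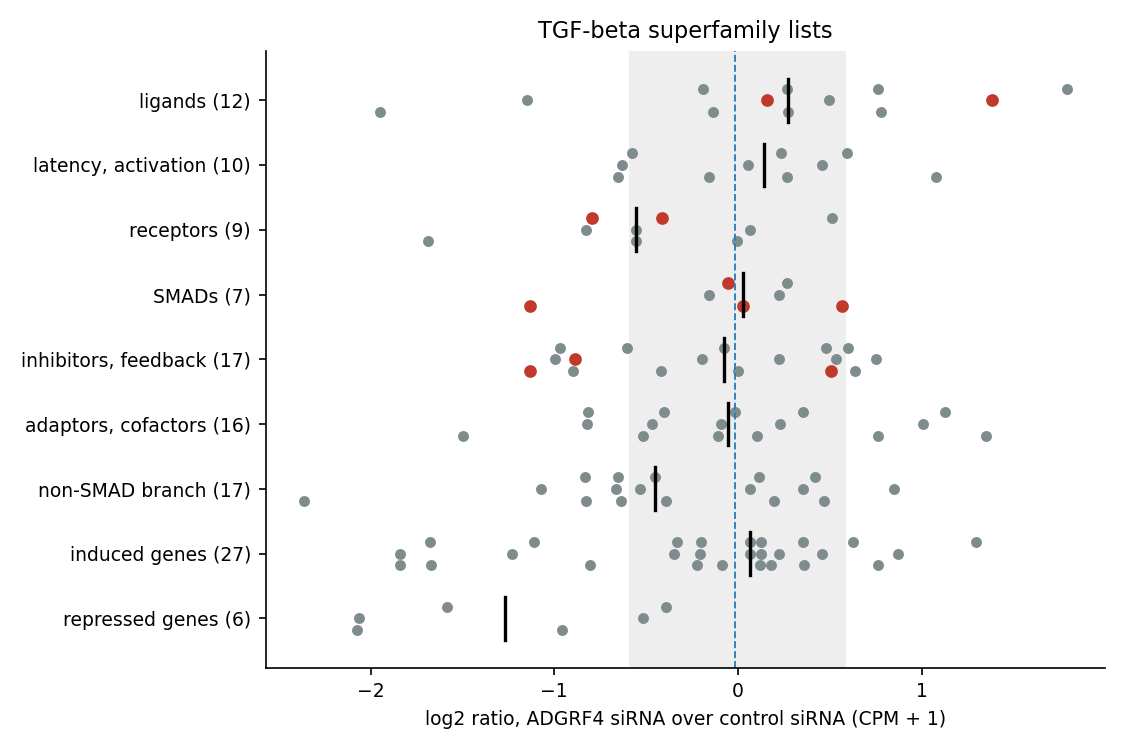
Log2 ratio, ADGRF4 siRNA over control siRNA, of each compared gene in 9 lists, with the number compared in parentheses, the 10 members in red and each list's median as a black bar. The grey band marks less than 1.5-fold and the dashed line the median of all compared symbols, -0.02. The repressed genes have the lowest median, -1.27, and the ligands the highest, 0.27.

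Genes that TGF-beta induces were called in both directions, and those it represses were called lower where they were called. Of 27 compared genes that TGF-beta induces in epithelial cells, 7 passed the limit downwards and 4 upwards, shares near the 22.3% and 21.1% of all compared symbols. Their median log2 ratio was 0.06, or -0.14 at a limit of 100 counts. GADD45B, a stress sensor, had 235 counts after ADGRF4 siRNA and 1015 after control siRNA, 3.68-fold lower (3.19 to 4.26). JUNB, an AP-1 subunit, had 389 counts after ADGRF4 siRNA and 1485 after control siRNA and was 3.25-fold lower (2.91 to 3.65). KLF10, the TGF-beta inducible early gene, and BHLHE40, a basic helix-loop-helix repressor, were the other largest differences, at log2 ratios of -1.84 and -1.67. These 4 are also early response genes that many stimuli induce. Exons of JUNB are overlapped on the other strand by HOOK2, those of SMURF2 by CEP95, those of HGS by ARL16 and those of BHLHE40 by its antisense RNA, so their counts are uncertain where strand was not used.

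Some other members of that list gave other values. FN1, fibronectin, had a ratio of 1.09, TGFBI one of 0.870 and the N-cadherin gene CDH2 one of 1.09, all inside the limits. CDKN1A, a cell cycle inhibitor, had 1272 counts after ADGRF4 siRNA and 809 after control siRNA, a ratio of 1.84. Its 3' end is 51.0% GC, and its centred log2 ratio was 0.54, inside the limit. These 4 genes were named after their values were seen. Of 6 genes that TGF-beta represses in epithelial cells, 4 passed the limit downwards and 0 upwards, against 22.3% and 21.1% of all compared symbols. The median of the 6 was -1.27. After centring, 4 were lower and 0 higher, against 19.1% and 15.2% of symbols, with a centred median of -1.22. The 4 genes called before centring are MYC, CDH1, ID3 and ID1, and their log2 ratios were -2.07, -2.08, -1.58 and -0.96. Genes of the induced and of the repressed list were thus both among those with fewer counts after ADGRF4 siRNA.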

How the data were processed

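Messenger RNA of A549 cells was counted at the 3' end in 2 libraries. Per the labels' protocols, Trizol was used for total RNA and the Lexogen QuantSeq kit for library construction. Values are whole-number counts that the authors deposited for each gene symbol, not normalized. The submitters' processing notes name Bowtie2, edgeR and build hg19. The role and version of each tool, the annotation, strand setting and handling of multiply mapped reads were not stated. No row lacked a symbol, and rows of a repeated symbol (286 of 24462) were summed.

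TMM factors from edgeR 4.0.16 (R 4.3.3) scaled the library sizes. A symbol was compared if its counts averaged at least 30 over the libraries. Calls used log2 of (CPM + 1) ratios at 1.5-fold, which understates the change of low genes. Printed folds have no pseudocount, with exact Clopper-Pearson 95% intervals. PCR duplicates are not independent molecules, so all intervals are too narrow. A 3' GC value (final 300 bases, longest GENCODE 29 transcript) was found for 94.6% of compared symbols, and ratios were centred on the median of 20 bins. GENCODE and RefSeq are on GRCh38 and were used by symbol only, for sequence and overlaps. With 2 libraries, no likeness of patterns across samples was computed.

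The members and lists were chosen with earlier results of these data known. The rule for named genes took all members, ADGRF4 and up to 4 compared genes per list with the largest absolute log2 ratio. Other genes, such as TGFB3, ENG, markers at low counts and overlapping genes, were named after their values were seen. CAGAC and ATTTA were added after values were seen. The ratio calculation, in Python 3.11.15 with scipy 1.17.1, numpy 2.4.6 and pandas 2.3.3, was tested on simulated data. Alternatives were scaling by total counts, by DESeq2 1.42.0 size factors or by the upper quartile, a pseudocount of 0.1 or 5, a limit of 100 counts or none, a 2-fold threshold, thinning of the control library and centring on 3' GC.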

Additional observations from a re-analysis of the deposited data

How the results depend on the processing

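Among 71 recomputed log2 ratios of the 10 members, 63 stayed within the counting interval of the value reported and 8 moved out of it, under total-count scaling or centring on 3' GC, and 0 called ratios changed sign. SMAD2, which was not called, lay at 0.03 in the report, -0.12 under total-count scaling and -0.13 after centring. TGFB1 ranged from 1.05 to 1.45, SMAD7 from -1.30 to -0.72, SKIL from -1.03 to -0.58 and TGFBR2 from -0.94 to -0.46. Centring on 3' GC gave 2 members higher and 1 lower in place of 1 and 3, with SKIL just inside the limit. The 2-fold threshold gave 1 lower. For the other pathway components, the 2-fold threshold gave 5 higher and 6 lower, and a pseudocount of 5 gave 12 lower in place of 20. For induced genes, the 2-fold threshold left 1 higher, and a limit of 100 counts gave a median of -0.14 in place of 0.06. Adding the TGFB2-OT1 counts, an alternative chosen after seeing the data, gave TGFB1 shares of 27.7% after ADGRF4 siRNA and 13.3% after control siRNA. The thresholds and pseudocount move counts by their own construction, and the cause of the other moves was not tested. No paired analysis was possible because each treatment has 1 library. Depth limits genes with fewer than 50 counts after ADGRF4 siRNA, among them SMAD7 of the members and ACVR1, MYC, ITGB6, SMURF2, TGFB3, ACVR2A and TGIF2 of the pathway lists. A loss of ADGRF4 was not detectable at this depth.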
